A study of Mus musculus with 18 samples.

Results

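The comparison described here set mammary tumours of parous Snai2-deficient mice that had no metastasis (KO, 3 arrays) against mammary tumours of parous Snai2 wild-type mice that had metastasis (WT, 4 arrays), out of 18 arrays in the study. The 7 arrays were taken by their sample titles alone, and expression values played no part in that choice. Genotype and metastasis status changed together between these groups, so every difference below is the joint difference of both, and the contributions of the deletion and of metastasis cannot be told apart. All mice carried the ErbB2 proto-oncogene of the line FVB/N-Tg(MMTVneu)202Mul/J, in which the mouse mammary tumour virus promoter drives neu in mammary epithelium, and the KO mice carried the germline Snai2 deletion of B6;129S1-Snai2tm2Grid/J. Both groups were parous, that is, the mice had borne litters; their ages are not given in the labels. The other 11 arrays were 3 of metastatic KO parous mice, 3 of KO nulliparous mice free of metastasis, 1 of a metastatic KO nulliparous mouse and 4 of metastatic WT nulliparous mice, and they served to estimate the spread and to set values side by side. The sample titles count the arrays of each group as biological replicates, except for the metastatic KO nulliparous array, whose title gives no replicate. The limma p-values set each difference against a spread estimated over the arrays of all 6 groups.

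Snai2 encodes Slug, a zinc-finger repressor of the Snail family that binds the E-box CAGGTG and recruits histone demethylase and deacetylase complexes, and that is known for lowering E-cadherin and for maintaining basal progenitor cells of the mammary gland. ERBB2 is a receptor tyrosine kinase that forms dimers with its relatives and signals through the MAPK and PI3K pathways, and tumours driven by it in mice are of luminal type. Parity leaves the gland with cells that have passed through secretory differentiation, a programme run by prolactin, Stat5 and Elf5 with milk protein genes as its output.

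Promoter windows of 4 genes are shown first, since Ltf and Wap had the largest log2 differences among milk genes whose groups did not overlap, and Crim1 and Psmd6 were low-p genes, 1 for each direction. Each window holds 250 bases before and 50 after the annotated start, from RefSeq on GRCm38.p6, written 5′ to 3′ on the gene's strand with any CAGGTG or CACCTG in capitals.
Ltf (chr9:111019042-111019341, + strand): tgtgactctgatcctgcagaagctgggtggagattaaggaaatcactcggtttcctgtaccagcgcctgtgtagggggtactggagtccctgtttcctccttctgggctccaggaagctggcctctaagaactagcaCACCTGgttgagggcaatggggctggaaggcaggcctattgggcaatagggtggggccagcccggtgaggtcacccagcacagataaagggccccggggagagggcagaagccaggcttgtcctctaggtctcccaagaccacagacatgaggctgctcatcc
Psmd6 (chr14:14120896-14121195, - strand): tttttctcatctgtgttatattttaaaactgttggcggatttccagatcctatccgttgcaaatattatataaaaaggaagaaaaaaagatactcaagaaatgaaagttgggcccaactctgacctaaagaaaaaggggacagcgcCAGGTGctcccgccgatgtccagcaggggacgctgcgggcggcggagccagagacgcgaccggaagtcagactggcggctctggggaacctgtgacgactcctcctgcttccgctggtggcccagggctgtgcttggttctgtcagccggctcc
Wap (chr11:6638600-6638899, - strand): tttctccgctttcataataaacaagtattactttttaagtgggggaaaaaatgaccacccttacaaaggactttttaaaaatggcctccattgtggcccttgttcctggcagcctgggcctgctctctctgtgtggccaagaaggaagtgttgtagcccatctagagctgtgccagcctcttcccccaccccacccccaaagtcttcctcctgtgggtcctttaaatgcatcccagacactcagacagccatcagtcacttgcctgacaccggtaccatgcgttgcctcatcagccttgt
Crim1 (chr17:78199998-78200297, + strand): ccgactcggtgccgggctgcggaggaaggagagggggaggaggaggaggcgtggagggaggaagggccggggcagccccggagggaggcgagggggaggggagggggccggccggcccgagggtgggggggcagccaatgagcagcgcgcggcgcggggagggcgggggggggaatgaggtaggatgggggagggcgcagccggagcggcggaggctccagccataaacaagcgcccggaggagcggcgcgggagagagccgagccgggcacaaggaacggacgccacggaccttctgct
The Ltf window held 1 such E-box, which began 113 bases before the start, and the Psmd6 window held 1, which began 104 bases before it. The windows of Wap and Crim1 held none. Of the 20 genes ranked first by p, 10 per direction, 11 had a window, and 2 of their 13 windows held the motif. With 1 chromosome left out of the count, 20.2% of 32851 RefSeq windows held it. The 2 windows belonged to Psmd6 and to Cited1, a lower gene. Among the higher genes with a window Psmd6 alone held the motif, and Brpf1 and Copg1, which had smaller p, held none.

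The targeted gene gave a weak check of the labels. Snai2 had log2 values of 6.74, 6.48 and 6.28 in the KO tumours, against 6.87, 7.09, 6.68 and 6.68 in the WT tumours. The groups overlapped at 1 KO tumour, whose level lay above those of 2 WT tumours. The log2 difference was -0.33, with an exact permutation p of 0.171 over 35 splits (two-sided), where the smallest p possible is 0.0286. Snai2 was dim, and did not exceed the 35.4th percentile of genes on any of the 7 arrays; RMA values of dim genes are compressed. The labels do not say whether the probes lie inside the deleted part of Snai2, so the check bears on the labels only if they do.

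Erbb2 was bright and even. It had log2 values of 12.62, 12.80 and 12.88 in the KO tumours and 12.81, 12.75, 12.81 and 12.68 in the WT tumours, a log2 difference of 0.01 with an exact permutation p of 0.886. The luminal markers Krt8, Krt18 and Epcam stood above at least 99.0% of genes on all 7 arrays. Other luminal genes were dim: Foxa1 did not exceed the 27.5th percentile and Pgr did not exceed the 28.1st. Krt5 and Krt14, keratins of basal cells, and Trp63, the p63 gene of basal cells, lay between the 25.9th and 48.3rd percentiles. The integrin genes Itgb4 and Itga6, also on the basal list, were bright, with log2 values of at least 11.25 and 12.30 on all 7 arrays. Among genes of metastasis sites, the lung surfactant gene Sftpc did not exceed the 20.6th percentile and the liver gene Alb did not exceed the 11.7th.

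No gene passed an adjusted p of 0.05 in the comparison, which called 0% of the 19938 genes tested with limma and Benjamini-Hochberg adjustment. The smallest adjusted p was 0.689. At an unadjusted limma p under 0.05 there were 1149 genes, 817 of them higher and 332 lower in KO tumours. The 2 groups did not overlap in 780 genes that were higher in KO tumours, which is 3.91% of genes, and in 384 that were lower, which is 1.93%. A log2 difference of at least 1 without overlap was found in 13 genes in the higher and 17 in the lower direction. The median log2 difference over all genes was 0.00771, with 52.8% of genes above 0, and the median SE was 0.114. With the dimmest 40% of genes left out, 5.56% of genes placed on a chromosome had groups apart in the higher direction and 1.53% in the lower.

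**Figure D1:**
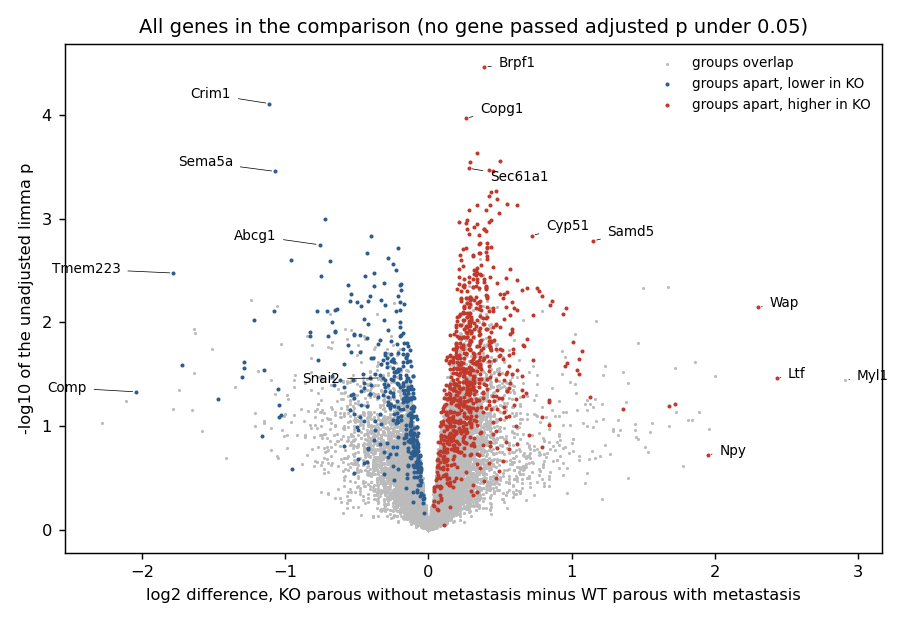
Each point is 1 of 19938 genes, with the log2 difference (KO parous without metastasis minus WT parous with metastasis) on the horizontal axis and the negative log10 of the unadjusted limma p on the vertical axis. Coloured points are the 780 genes higher and 384 lower in KO tumours whose groups did not overlap, and none of them passed an adjusted p of 0.05.

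One KO tumour stood apart from the other 6. Across 10254 brighter genes, whose mean log2 was 8 or more, KO replicate 2 correlated with the others at Pearson r of 0.842 to 0.910, while the other 6 correlated with each other at 0.931 to 0.965. The median SD over genes was 0.16 in the KO group and 0.11 in the WT group. Without KO replicate 2 there were 727 genes with an unadjusted limma p under 0.05, and 1 gene, Crim1, passed. The plot of list medians shows all 28 gene lists with and without this tumour.

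The 10 higher genes with the smallest p had log2 differences between 0.26 and 0.50, and all 10 were higher without KO replicate 2 as well. Brpf1, a scaffold of histone acetyltransferase complexes, had log2 values of 10, 10.12 and 9.91 in KO tumours, against 9.64, 9.62, 9.68 and 9.57 in WT tumours. Its log2 difference was 0.39 with an SE of 0.06 (limma adjusted p = 0.689). Every KO tumour lay above every WT tumour for this gene. Copg1, a coat subunit of the COPI vesicles that return proteins from the Golgi to the endoplasmic reticulum, had 11.11, 11.09 and 11.10 in KO tumours, against 10.83, 10.86, 10.81 and 10.84 in WT tumours. Sec61a1, the pore subunit through which new proteins enter the endoplasmic reticulum, had 12.73, 12.87 and 12.85 in KO tumours, against 12.47, 12.54, 12.59 and 12.56 in WT tumours. In both genes the lowest KO tumour lay above the highest WT tumour. Hspa13, an Hsp70 relative associated with the endoplasmic reticulum, had 10.95, 10.97 and 11.03 in KO tumours, against 10.52, 10.43, 10.51 and 10.65 in WT tumours. Psmd6, a lid subunit of the 19S proteasome, had 10.56, 10.82 and 10.61 in KO tumours, against 10.33, 10.11, 10.20 and 10.24 in WT tumours. The other 5 were Mmadhc, which acts in the handling of cobalamin within cells, Nop9, an RNA-binding protein of ribosome assembly, Otud7b, a deubiquitinase, Heatr5a and Eif1ad. Their log2 differences were 0.34, 0.50, 0.29, 0.42 and 0.47, with groups apart in each, and their limma adjusted p values were 0.700 to 0.772.

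The complexes that hold Psmd6, Copg1 and Sec61a1 were then counted, these genes included. The COPII coat, which holds none of these genes, was counted as well. All were chosen after the values were seen, so the counts are a description with no test. Over all genes 52.8% were higher and 3.91% had groups apart in the higher direction, or 5.56% with the dimmest 40% left out. All 20 measured Psmc and Psmd genes, of the 19S proteasome and its assembly, were higher in KO tumours, with a median log2 difference of 0.19. Of these, 3 had groups apart. Without KO replicate 2, 18 were higher and the median was 0.12. All 11 genes of the COPII coat, which buds vesicles from the endoplasmic reticulum, were higher, with a median of 0.27, or 0.23 without that tumour, and 4 with groups apart. Of 9 COPI genes 7 were higher, with a median of 0.15, or 0.13 without it, and 3 had groups apart. Of 5 translocon genes 3 were higher, with a median of 0.08, or 0.05 without it, and 1, Sec61a1, had groups apart.

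Among the 10 lower genes with the smallest p, Crim1 and Sema5a had the largest log2 differences. Crim1, a membrane protein with cysteine-rich repeats that binds bone morphogenetic proteins, had log2 values of 8.49, 9.29 and 8.29 in KO tumours, against 9.71, 9.79, 9.90 and 9.78 in WT tumours. The means were 8.69 ± 0.53 (SD, n = 3) in KO tumours and 9.80 ± 0.08 (SD, n = 4) in WT tumours, a log2 difference of -1.11 with an SE of 0.20 (limma adjusted p = 0.700). The KO tumour nearest to WT was replicate 2. Without it the log2 difference of Crim1 was -1.41, with an SE of 0.14 and a limma adjusted p of 0.0054. That was the 1 gene to pass without this tumour. Sema5a, a semaphorin that guides axons and acts on endothelial cells, had 9.63, 9.66 and 9.44 in KO tumours, against 10.27, 10.30, 11 and 11.01 in WT tumours, a log2 difference of -1.07 (SE 0.22, limma adjusted p = 0.700). The 4 WT tumours lay in 2 pairs, and both pairs were above all KO tumours.

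Abcg1, a transporter that moves cholesterol out of cells, had 10.19, 10.25 and 10.37 in KO tumours, against 11.11, 11.13, 10.70 and 11.17 in WT tumours, a log2 difference of -0.76. Akap12, a scaffold that anchors protein kinase A, had 10.43, 9.53 and 10.23 in KO tumours, against 10.61, 10.59, 10.71 and 11.09 in WT tumours, a log2 difference of -0.69, or -0.42 without KO replicate 2. Both genes had a limma adjusted p of 0.772. Cited1, a coactivator of the oestrogen receptor found in luminal cells, differed by -0.21, with every KO tumour at 7.38 or less and every WT tumour at 7.47 or more. The log2 differences of Aldoart1, Rnf13, Pisd-ps2, Bmerb1 and Zfp931 were -0.72, -0.40, -0.43, -0.28 and -0.96, all with groups apart. Without KO replicate 2 those of Aldoart1 and Bmerb1 were -0.45 and -0.17. Aldoart1 is a retrogene of Aldoa, so its probes may read Aldoa transcripts and its value is uncertain; Pisd-ps2 is a pseudogene to which the same applies.

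**Figure D2:**
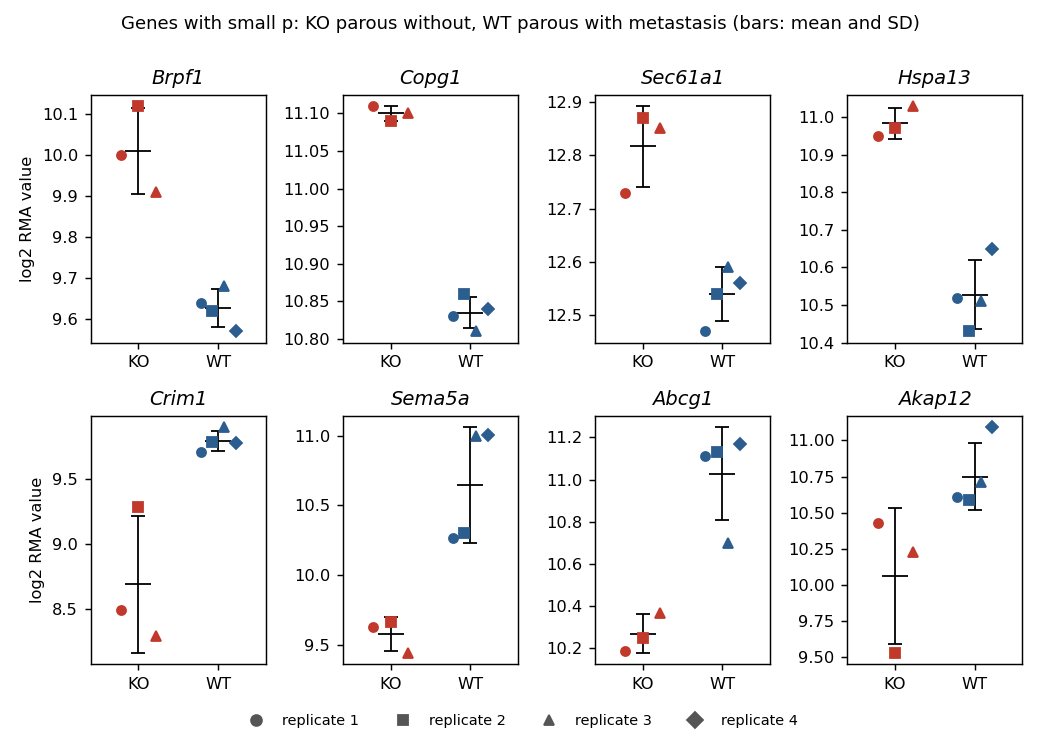
Log2 RMA values of 8 genes in the 3 KO tumours (left in each panel) and the 4 WT tumours (right), with the mean and SD as black bars and replicates as symbols; the vertical axes differ between panels and do not start at 0. The groups did not overlap in any of the 8 genes, and KO replicate 2 was the KO tumour nearest to WT for Crim1 and the farthest for Akap12.

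Milk genes were higher in the KO tumours in value, though none passed the test. Of 20 measured genes of the milk and secretory list 19 were higher, 3 of them with groups apart where 3.91% of all genes had, and the median log2 difference was 0.76. Without KO replicate 2 the median was 0.33, with 19 of 20 higher, and without KO replicate 1 it was 1.18. Wap, the whey acidic protein, had log2 values of 9.17, 11.92 and 8.83 in KO tumours, against 7.48, 7.7, 7.90 and 7.62 in WT tumours. KO replicate 2 was the highest, and the other KO tumours also lay above all WT tumours. The log2 difference of Wap was 2.30 (SE 0.72, limma adjusted p = 0.772), and 1.32 without that tumour. Ltf, lactoferrin, had 11.40, 12.98 and 11.20 in KO tumours, against 8.46, 10.21, 10.07 and 9.01 in WT tumours, a log2 difference of 2.43 (SE 1.03, limma adjusted p = 0.851). Neutrophils store lactoferrin too. Of the other 14 genes of the neutrophil list 10 were higher, and the mean of the whole list, Ltf included, was 7.57, 7.83 and 7.28 in KO tumours, against 7.05, 7.42, 7.29 and 7.16 in WT tumours. The part of neutrophils in the difference of Ltf was not tested. Lao1, the milk amino acid oxidase, had 9.27, 9.71 and 9.37 in KO tumours, against 7.30, 9.04, 7.57 and 7.17 in WT tumours. WT replicate 2 approached the KO tumours for this gene.

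Csn1s2a and Csn2, an alpha and the beta casein of milk, were lower in 3 of the 4 WT tumours than in every KO tumour. Csn1s2a had 13.17, 13.75 and 13.51 in KO tumours, against 11.87, 13.64, 12.12 and 8.73 in WT tumours, and Csn2 had 13.33, 13.80 and 13.84, against 12.78, 13.66, 12.66 and 10.42 in WT tumours. WT replicate 4 was the lowest in both, and WT replicate 2 lay within the KO range. Csn1s2b, outside the list and named after its values were seen, had 9.59, 8.77 and 9.02 in KO tumours, against 7.09, 8.65, 7.46 and 6.42 in WT tumours, with groups apart. Csn3, the kappa casein, was even, with a log2 difference of 0.01. Among the regulators the log2 difference was 0.41 for Stat5a, 0.29 for Elf5 and 0.23 for Socs2, a feedback inhibitor of prolactin signalling.

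Of 20 luminal epithelial genes 13 were higher and 7 lower, with a median log2 difference of 0.20, or 0.12 without KO replicate 1. Esr1, the oestrogen receptor, had log2 values of 8.31, 9.21 and 9.52 in KO tumours, against 8.03, 8.11, 8.20 and 7.46 in WT tumours. Its groups were apart, and the log2 difference was 1.07 (SE 0.40, limma adjusted p = 0.851). Pgr, the progesterone receptor that oestrogen induces, stayed dim in both groups, with a log2 difference of 0.03. Keratin 19 was high in KO replicate 2 alone, at 6.89, 9.69 and 6.78 in KO tumours against 6.51, 6.57, 6.56 and 6.92 in WT tumours (gene Krt19). The 20 basal and myoepithelial genes had a median of 0.10, with 14 higher, and a median of -0.04 without KO replicate 2. Krt5 had 6.65, 7.99 and 6.56 in KO tumours, against 6.48, 6.64, 6.59 and 6.51 in WT tumours, again high in that tumour alone.

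Hypoxia and glycolysis genes were lower in value in KO tumours, in 24 of 24 measured genes, with a median log2 difference of -0.31. Aldoa and Bnip3 had groups apart, where 1.93% of all genes had in the lower direction. Without KO replicate 2 the median was -0.22, with 23 of 24 lower, and without KO replicate 1 it was -0.54. Bnip3, a mitophagy receptor induced by hypoxia, had log2 values of 11.40, 10.34 and 10.39 in KO tumours, against 11.74, 11.80, 12.10 and 11.79 in WT tumours, a log2 difference of -1.15 (SE 0.47, limma adjusted p = 0.851). Vegfa, the angiogenic factor, had 12.08, 11.12 and 11.01 in KO tumours, against 12.24, 11.90, 12.16 and 12.59 in WT tumours. KO replicate 1 resembled the WT tumours: it lay within the WT range in 17 of the 24 genes and above it in 3, while replicates 2 and 3 lay below all WT tumours in 18 and 19. The list mean was 11.69, 11.02 and 11.04 in KO tumours, against 11.65, 11.61, 11.71 and 11.77 in WT tumours. Among the glycolytic enzymes, Ldha and Pkm had log2 differences of -0.09 and -0.16. Angpt2 and Esm1, genes of sprouting endothelium picked after their values were seen, had groups apart as well, with log2 differences of -1.29 and -1.22, while the median of the 19 endothelial markers was 0.13 with all arrays and -0.15 without KO replicate 2. The 24 oxidative phosphorylation genes were split, 12 higher and 12 lower, with a median of 0.00.

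The list of fatty acid and cholesterol synthesis had a mean of 10.79, 10.77 and 10.78 in KO tumours, against 10.58, 10.41, 10.68 and 10.50 in WT tumours. The KO tumours lay close together, and the groups did not overlap. Among the 28 lists it was alone in this, which was seen after the values were known, and list means were not tested. Of its 24 genes 17 were higher, 3 with groups apart where 3.91% of all genes had, with a median log2 difference of 0.26. The median was 0.16 without KO replicate 2 and 0.17 without KO replicate 1. Cyp51, the lanosterol demethylase of cholesterol synthesis, had 8.96, 9.14 and 8.85 in KO tumours, against 8.47, 7.79, 8.58 and 8.20 in WT tumours, a log2 difference of 0.72 (SE 0.18, limma adjusted p = 0.772). Idi1, the isomerase that precedes farnesyl diphosphate, differed by 0.66 and overlapped in 1 tumour of each group. Fasn, the fatty acid synthase, and Acly, which supplies it with acetyl-CoA, had groups apart, with log2 differences of 0.41 and 0.53. Scd1 and Srebf1 were lower in value, at -0.11 and -0.14.

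Cell cycle genes were higher in value in 23 of 23, with a median log2 difference of 0.25, and none had groups apart. The median was 0.11 without KO replicate 1, 0.27 without KO replicate 2 and 0.39 without KO replicate 3. Cdc20, the activator of the anaphase-promoting complex, had 9.40, 9.56 and 8.62 in KO tumours, against 8.43, 8.52, 8.73 and 8.68 in WT tumours. Ccnb2, a mitotic cyclin, had 12.24, 11.69 and 11.49 in KO tumours, against 11.19, 11.28, 11.62 and 11.39 in WT tumours. KO replicate 1 was above all WT tumours in 19 of the 23 genes, replicate 2 in 12 and replicate 3 in 2, so the distance from WT differed between the KO tumours. The proliferation marker Mki67 differed by 0.20 with an SE of 0.16.

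**Figure D3:**
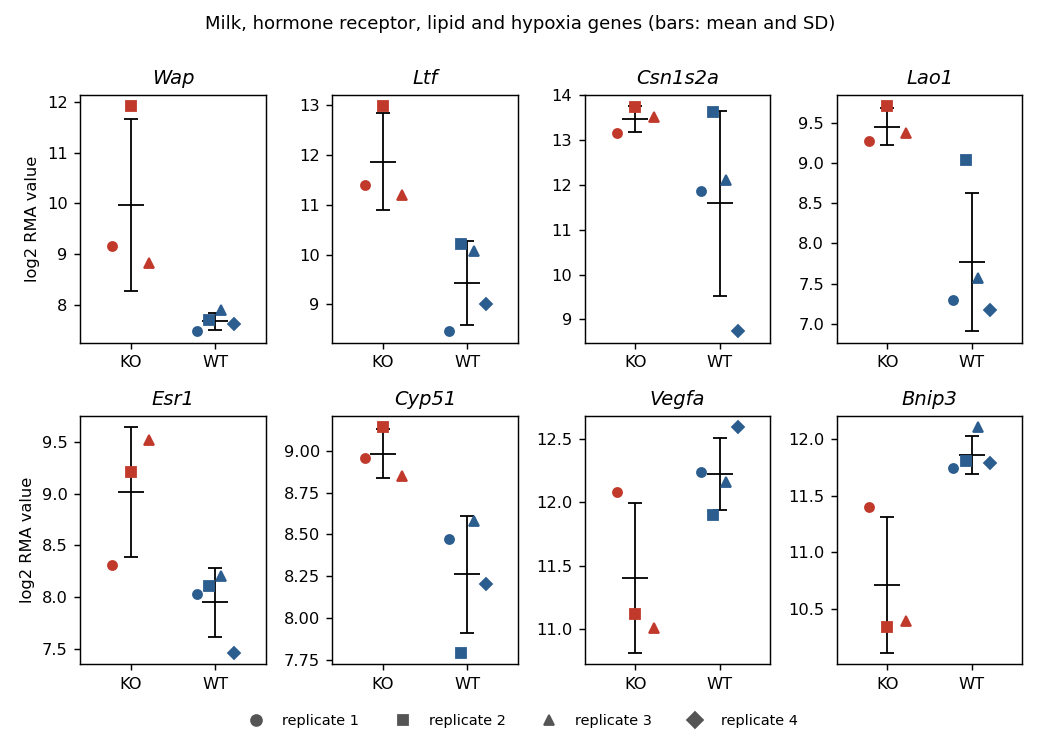
Log2 RMA values of 8 genes in the 3 KO tumours (left in each panel) and the 4 WT tumours (right), with the mean and SD as black bars; the vertical axes differ and do not start at 0. KO replicate 2 is the highest for Wap and Ltf, WT replicate 4 the lowest for Csn1s2a, and KO replicate 1 the nearest to WT for Bnip3 and Vegfa.

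The fibroblast, macrophage and endothelial lists had their highest means in KO replicate 2, at 10.68, 9.72 and 9.22. The T and NK cell list did not, at 6.31 in that tumour and 6.34 to 6.42 in WT tumours, nor did the adipocyte list, at 8.20 in that tumour and 7.76 to 8.51 in WT tumours. In bulk tumours, fewer cells of a type and less RNA per cell cannot be told apart. All 21 fibroblast and matrix genes were higher in value in the KO group, with a median log2 difference of 0.34, but the list mean was 9.37, 10.68 and 9.22 in KO tumours, against 9.35, 10.19, 8.32 and 9.16 in WT tumours. KO replicate 2 was above all WT tumours in 20 of the 21 genes, replicate 1 in 1 and replicate 3 in 0. Without replicate 2, 16 of the 21 were lower and the median was -0.09. Proteases and their inhibitors behaved alike, with 16 of 22 higher and a median of 0.35, against 8 of 22 and -0.05 without that tumour. The 20 macrophage markers had a median of 0.07 and of -0.26 without it, with list means of 8.60, 9.72 and 8.60 in KO tumours against 8.84, 9.33, 8.52 and 8.59 in WT tumours. Cd14, an endotoxin co-receptor of macrophages and luminal progenitors, had 10.16, 12.22 and 10.50 in KO tumours, against 9.37, 10.47, 9.34 and 9.11 in WT tumours, and its log2 difference was 1.39 with all arrays and 0.76 without KO replicate 2. The part of stromal and immune cells in the differences of KO replicate 2 was not tested.

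Skeletal muscle genes were higher in value in all 20 measured, with a median log2 difference of 0.76. The median was 1.16, 0.89 and 0.50 without KO replicates 1, 2 and 3. The list mean was 7.37, 8.41 and 9.02 in KO tumours, against 6.97, 7.96, 7.04 and 7.09 in WT tumours. Myl1, a myosin light chain, had 7.58, 10.58 and 10.94 in KO tumours, against 5.74, 8.70, 6.61 and 6.13 in WT tumours. KO replicates 2 and 3 and WT replicate 2 were the tumours with high muscle values, and the part of muscle tissue in the other differences of those tumours was not tested. Adipocyte markers were split, with 7 higher and 9 lower of 16 and a median of -0.05; Slc2a4, the insulin-responsive glucose transporter that muscle shares, had groups apart at a log2 difference of 0.26. Neutrophil markers had 11 of 15 higher with a median of 0.15. Il1b, the cytokine interleukin-1 beta, had 8.15, 8.38 and 6.97 in KO tumours, against 6.69, 7.14, 6.70 and 6.75 in WT tumours, a log2 difference of 1.02 (SE 0.35, limma adjusted p = 0.839). T and NK cell markers, B and plasma cell markers, erythrocyte genes and the lung and metastasis site genes had medians of -0.03, 0.03, -0.05 and -0.01, over 21, 15, 5 and 11 measured genes.

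Of 17 measured antigen presentation genes 10 were higher and 7 lower, with a median log2 difference of 0.02. Without KO replicate 2 the median was -0.12, with 6 higher and 11 lower. Groups were apart in 5 of the 17, where 3.91% of all genes had groups apart in the higher direction. Those 5 were H2-Ab1, H2-Aa, H2-Eb1, Cd74 and Ciita, which make up or control MHC class II, an observation made after the values were seen. H2-Aa had 10.34, 10.67 and 10.62 in KO tumours, against 9.62, 9.73, 9.45 and 10 in WT tumours, a log2 difference of 0.84 (SE 0.40, limma adjusted p = 0.859). H2-Ab1 had 9.10, 9.45 and 9.34 in KO tumours, against 8.37, 8.80, 8.50 and 8.81 in WT tumours. The invariant chain Cd74 and the class II activator Ciita differed by 0.70 and 0.25. The other 12 genes of the list, among them B2m, Tap1 and Psmb9 of the class I pathway, overlapped between groups, with log2 differences of -0.12 to 0.17. Chemokines and cytokines had a median of 0.07 over 30 genes, with Cxcl14 apart at 1.05.

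Of 25 Snail, Zeb, Twist and epithelial-mesenchymal transition genes, 14 were higher and 11 lower with a median log2 difference of 0.02, and none had groups apart. The median was -0.09 without KO replicate 2, with 8 higher and 17 lower. Cdh1, E-cadherin, had 11.99, 12.22 and 11.89 in KO tumours, against 11.72, 11.96, 11.84 and 11.52 in WT tumours, a log2 difference of 0.27 (SE 0.13, limma adjusted p = 0.859). The relatives Snai1 and Snai3 differed by 0.20 and 0.10, Twist1 by 0.28, Zeb1 by 0.08 and Zeb2 by 0.05. Vim, the mesenchymal filament gene vimentin, differed by -0.15. S100a4, a calcium-binding protein of motile cells, differed by 0.36 and by 0.14 without KO replicate 2. The 17 Snail corepressors had a median of 0.03, and Kdm1a, the histone demethylase that Snail factors recruit, differed by 0.13 with an SE of 0.09.

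The 25 ERBB receptors, ligands and MAPK feedback genes had a median log2 difference of -0.06, with Phlda1 lower in every KO tumour than in every WT tumour at -0.31. Of 20 PI3K, Akt and mTOR genes 12 were higher with a median of 0.02. Akt1, a kinase downstream of PI3K, had 11.69, 11.85 and 12 in KO tumours, against 11.60, 11.49, 11.65 and 11.63 in WT tumours, a log2 difference of 0.25 (SE 0.08, limma adjusted p = 0.772). Rictor, a component of mTOR complex 2, differed by -0.25 and overlapped. The 22 TGF-beta genes had a median of -0.01, with Smad3, a signal transducer of the pathway, at -0.27. The 14 p53 and apoptosis genes had a median of 0.07, and Mcl1, an anti-apoptotic relative of Bcl2, had groups apart at 0.38. The 22 immediate early and handling stress genes had a median of 0.08 and of -0.03 without KO replicate 2.

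**Figure D4:**
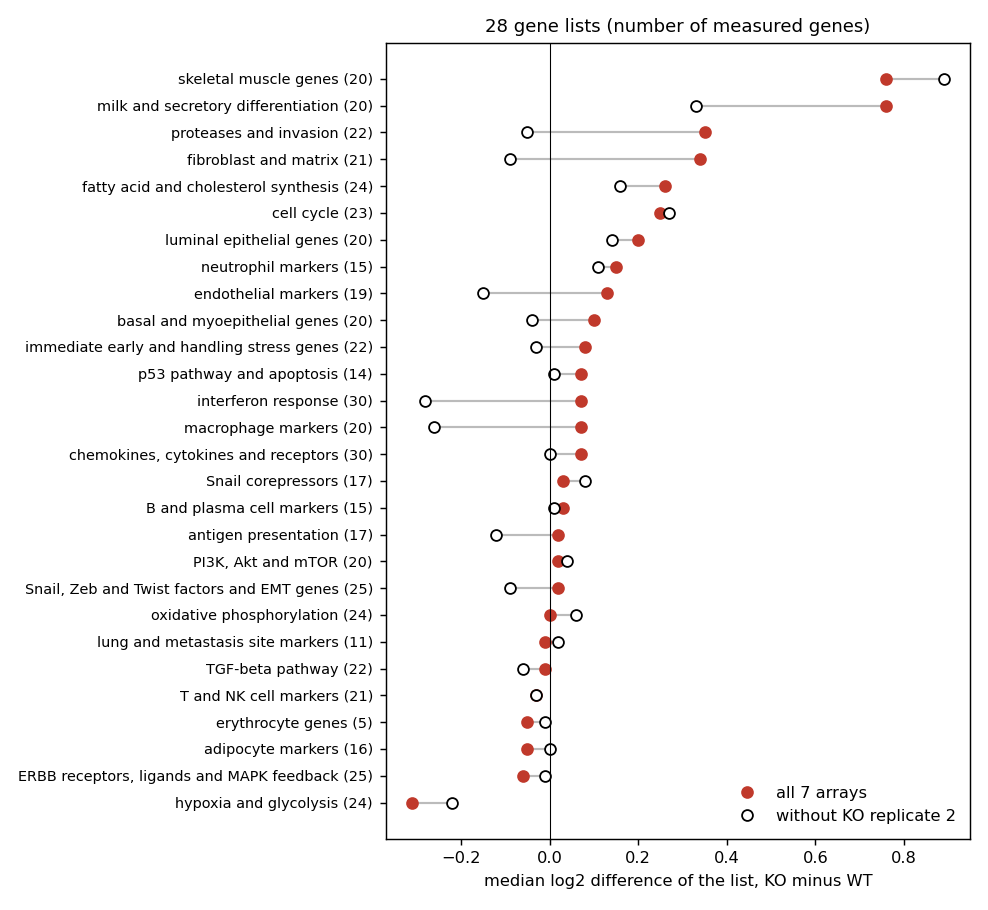
Median log2 difference (KO parous without metastasis minus WT parous with metastasis) of each of 28 gene lists, with all 7 arrays (filled) and without KO replicate 2 (open), and the number of measured genes in brackets. Milk, muscle, lipid synthesis, cell cycle and hypoxia lists keep their sign, while 10 lists change sign, among them fibroblast, protease, macrophage, endothelial and interferon genes.

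Of the 30 genes with a log2 difference of at least 1 without overlap, 23 were in no list, 7 higher and 16 lower. A few of them, named after their values were seen, are given here. Npy, neuropeptide Y, had 7.85, 12.75 and 7.64 in KO tumours, against 7.37, 7.28, 7.63 and 7.59 in WT tumours, and its log2 difference was 1.95 with all arrays and 0.28 without KO replicate 2. Samd5 had 9.80, 9.11 and 8.26 in KO tumours, against 8, 7.92, 7.94 and 7.75 in WT tumours, a log2 difference of 1.15 (SE 0.29, limma adjusted p = 0.772). Cnmd, chondromodulin, had 12.21, 11.77 and 12.26 in KO tumours, against 11.40, 11.17, 11.57 and 10.03 in WT tumours. In the lower direction, Tmem223 had 9.37, 10.43 and 8.88 in KO tumours, against 11.07, 11.47, 11.69 and 11.14 in WT tumours, a log2 difference of -1.78. Rnase1, a secreted ribonuclease, had 8.30, 6.89 and 7.03 in KO tumours, against 9.47, 9.82, 8.65 and 8.57 in WT tumours. The matrix gene Comp had 11.31, 7.12 and 10.56 in KO tumours, against 12.04, 11.45, 11.76 and 11.58 in WT tumours, and its log2 difference was -2.04 with all arrays and -0.77 without KO replicate 2.

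KO parous mice with metastasis share the genotype with the KO tumours and the metastasis label with the WT tumours, and their values can be set beside those above. They held 3 arrays, of which replicates 2 and 3 were nearly identical and are averaged here, so 2 values remain and no test is given; each difference also shares its KO or WT tumours with the main comparison. Of the 10 higher genes with the smallest p, 8 had both values above every WT tumour, and 6 had both below every KO tumour without metastasis. Of the 10 lower genes, 6 had both values below every WT tumour, and 6 had both above every KO tumour without metastasis. These genes were chosen by small p and all had groups apart in the main comparison. Such shares were not counted over all genes, so the counts describe the chosen genes only. Crim1 had 8.80 and 8.53 in KO tumours with metastasis, close to the KO tumours without it and below all WT tumours. Tmem223 had 8.85 and 11.38, the first below all KO tumours without metastasis and the second within the WT range. Nop9 had 8.96 and 8.77 and Mmadhc had 10.27 and 10.28, each above all WT tumours. Zfp931 had 8.95 and 8.48, Rnf13 had 11.13 and 11.01, and Akap12 had 10.60 and 10.61, all above every KO tumour without metastasis. Sema5a had 10.06 and 10.26, between the groups. Wap had 7.54 and 9.30 and Ltf had 8.43 and 11.45, the first within or near the WT range and the second within the KO range. H2-Aa had 10.38 and 10.77 and Cyp51 had 8.64 and 8.95, above every WT tumour. Bnip3 had 11.44 and 12.10 and Vegfa had 12.12 and 12.47, above every KO tumour without metastasis.

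The same joint contrast could be tested in nulliparous mice, with 3 KO tumours without metastasis and 4 WT tumours with metastasis, none of them shared with the parous groups. There 49 genes passed (limma adjusted p under 0.05), 18 higher and 31 lower, which is 0.246% of genes. The count was 0 with a replicate block, 0 with adipocyte and leukocyte list means as covariates, 1 with only the compared arrays in the fit, and 0 without WT nulliparous replicate 1 or 4. It was 1 without KO nulliparous replicate 2, and 0 to 179 over all samples left out in turn. Median log2 differences of the macrophage, T and NK cell and adipocyte lists were -0.48, -0.30 and -0.41 in these mice, and the part of those cells in the calls was not tested. In the parous comparison 13 of those 18 were higher and 14 of those 31 were lower in value. Cnmd was the called gene with the largest parous log2 difference, at 2.70 in nulliparous mice (limma adjusted p = 0.0385) and 1.04 in parous mice. Interferon response genes made up 11 of the 31 lower calls: Stat2, a transducer of interferon signals, differed by -1.70 in nulliparous mice (limma adjusted p = 0.033) and by 0.14 in parous mice. Usp18, an interferon-induced brake on that signal, differed by -2.49 in nulliparous mice (limma adjusted p = 0.0477) and by -0.14 in parous mice. The median of the 30 interferon genes was -1.76 in nulliparous mice and 0.07 in parous mice, with 20 higher and 10 lower in parous mice. The parous median was -0.28 without KO replicate 2, with 27 of the 30 lower. None of the 30 had groups apart in parous mice. Ifi27l2a, an interferon-inducible gene outside the list and named after its values were seen, had groups apart there. Its log2 difference was -1.30 in parous mice (limma adjusted p = 0.851) and -1.54 in nulliparous mice (limma adjusted p = 0.259). The difference between the parous and nulliparous contrasts was tested gene by gene and called 0% of genes, with a smallest limma adjusted p of 0.267 and 1922 genes at an unadjusted limma p under 0.05. For Stat2 that difference was 1.84 (SE 0.35, limma adjusted p = 0.268), so the contrasts were not shown to differ at any gene.

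**Figure D5:**
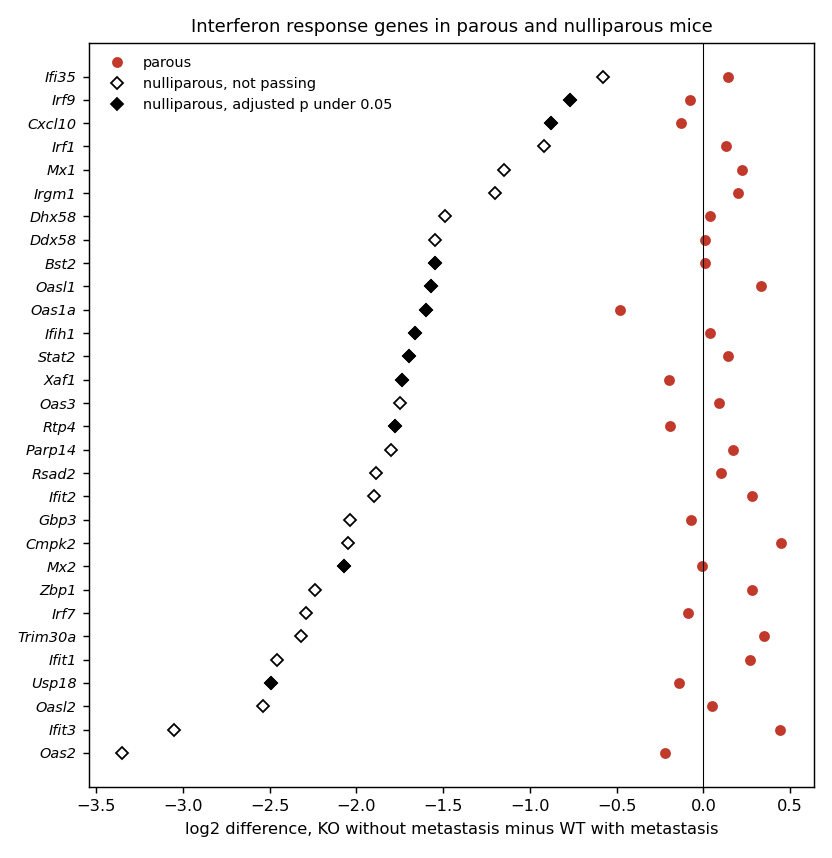
Log2 difference (KO without metastasis minus WT with metastasis) of 30 interferon response genes in parous mice (filled circles) and nulliparous mice (diamonds, filled where the limma adjusted p was under 0.05). The parous values have a median of 0.07, which was -0.28 without KO replicate 2, and the nulliparous values are all below 0 with a median of -1.76.

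Genes near Snai2 on chromosome 16 were counted because the deletion came from another strain background. Of 129 genes within 5 Mb on either side 75 were higher, and their median log2 difference was 0.02. Of the 129, 14 had groups apart in the higher and 3 in the lower direction, where 3.91% and 1.93% of all genes had. Ciita, apart in the higher direction, and Bmerb1, apart in the lower direction, both given above, were among them. The part of the strain background in their differences was not tested. Over the 11936 placed genes left after leaving out the dimmest 40%, chromosome 16 as a whole had 12.2% of 386 genes apart in the higher direction, the highest share of any chromosome, and chromosomes 8 and 14 had 9.65% and 9.4%, where 5.56% of these genes had. The level of a chromosome in a tumour, taken as the median deviation of its genes in this set from the mean of the 7 tumours, departed from 0 by at least 0.2 (log2) in 6 cases. KO replicate 2 was at 0.25 on chromosome 4 and -0.37 on chromosome 13, KO replicate 3 at 0.26 on chromosome 12, WT replicate 1 at 0.20 on chromosome 5, and WT replicate 4 at -0.40 on chromosome 8 and 0.28 on chromosome 15. Each of these shifts was found in a single tumour.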

How the data were processed

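Total RNA of each mammary tumour was measured on a single-colour Affymetrix whole-transcript array. The table the authors deposited gives a log2 value for each of 35556 probe sets per array. Per the submitters' processing notes, RMA and oligo made these values; their versions are not given here. RMA includes quantile normalization, so shifts shared by all genes are lost, and it compresses dim values. Array medians of the log2 values were 7.60 to 7.67. An array gives no read depth; the number of arrays limits the precision.

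Of the probe sets, 21789 had 1 gene in the platform annotation, 1621 several and 12146 none. Where a gene had several, the brightest on average stood for it, which gave 19938 genes, of which 19852 matched RefSeq genes of GRCm38.p6 by Entrez identifier, used for names and chromosomes. Arrays 2 and 3 of the metastatic KO parous group were close to duplicates (SD of their difference 0.102, next of 153 pairs 0.285) and were averaged as 1 sample.

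A group-means model over all 6 groups was fitted with limma 3.58.1 in R 4.3.3 (lmFit, eBayes; 11 residual degrees of freedom) and p-values were adjusted by Benjamini-Hochberg over all genes. The procedure was tested on simulated data. Snai2 and Erbb2 were tested by exact permutation over 35 splits. Groups apart means that no value of one group reached the other group. The plan set no replicate block, so replicate numbers were not taken to pair samples. Correlations of deviations between same-numbered arrays of the 2 groups were -0.06, 0.41 and 0.19. The 0.41, of KO and WT replicate 2, was the highest over all pairs of a KO and a WT array, and the lowest was -0.32.

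Genes were named by rule: Snai2, Erbb2, the 10 smallest p in each direction since none passed, and up to 2 members by smallest p of each of 28 lists; predicted genes were not named. Other genes are given as members of a list or as chosen after their values were seen. The members and lists were chosen with earlier results of these data known. Alternatives were the arrays in the fit, replicate block, dim-gene filter, probe set rule, renormalization, moderation, array weights, marker covariates and leaving out each sample.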

Additional observations from a re-analysis of the deposited data

Results flagged for a closer look

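A single tumour lay far from the other 3 of its group in 4 of the 103 values checked in the WT group, by Dixon's test at its 95% level; chance alone gives such a distance in about 1 of 20 groups. Abcg1 was at 10.7 in WT replicate 3, against 11.11 to 11.17 in the other WT tumours. Il1b was at 7.14 in WT replicate 2, against 6.69 to 6.75 in the others. The mean of the skeletal muscle genes was 7.96 in WT replicate 2, against 6.97 to 7.09 in the others. The mean of the ERBB receptors, ligands and MAPK feedback genes was 9.86 in the same tumour, against 10.13 to 10.16. The KO group of 3 was not checked this way.

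For a pair of named genes every parous KO tumour lay on one side of the parous WT tumours while the nulliparous tumours were separated in the opposite direction. Pisd-ps2 had a log2 difference of -0.43 in parous and 0.40 in nulliparous mice, which differ by -0.84 (limma adjusted p = 0.268). Akap12 had -0.69 in parous and 0.19 in nulliparous mice, which differ by -0.88 (limma adjusted p = 0.357). Neither difference passed the test.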

How the results depend on the processing

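The count of 0 genes in the parous comparison also held with only the 7 arrays, all 18 arrays kept apart, a replicate block, the filter on dim genes, either probe set rule, renormalization, eBayes with trend and robust, marker covariates, and, chosen after seeing the data, all probe sets, with or without a gene. Array weights called 1 gene (Crim1, -1.39, limma adjusted p = 0.00502), and leaving out 1 sample at a time called 0 to 2. Those were Crim1 without KO replicate 2, and Klk10 (2.26) and Togaram1 (0.69) without KO replicate 1. The nulliparous count of 49 was unstable: 1 with only the arrays compared, 128 with all 18 arrays apart, 0 with a replicate block, 215 with array weights, 0 with marker covariates, and 0 to 179 when 1 sample was left out. The difference of the contrasts called 0 to 8 genes when 1 sample was left out. The Snai2 difference ranged from -0.45 to -0.22 when 1 tumour was left out and was -0.38 with the replicate block. Near 0, the sign of Erbb2 turned: -0.02 with a replicate block, -0.02 with marker covariates, and -0.05 to 0.08 when 1 tumour was left out. Signs also turned for Oasl1 (-0.09 with array weights, -0.01 to 0.60 when 1 sample was left out), Sdc1 (-0.07 to 0.78) and Klf1 (-0.12 to 0.02), in each case without KO replicate 2. The cause was not tested. Over named genes, 2001 of the values under alternatives kept direction and side of the threshold, 9 turned sign and 2, both of Crim1, newly passed.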
